A study of Homo sapiens with 8 samples.

Results

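TSC22D1, TSC22D2, TSC22D3 and TSC22D4, which encode the TSC22 domain family of leucine zipper proteins, were described together with FKBP5, SGK1, NR3C1 and CEBPD, which encode parts and targets of the glucocorticoid response. The 8 genes were taken by symbol, as every probe set whose only gene symbol in the platform annotation was one of the 8. This gave 26 of the 54613 probe sets that were not manufacturer's controls, and 8 of the 19775 genes with a single symbol. The set was chosen on the soft against stiff result of TSC22D3, which ranked 9 among the 19775 genes by its increase on soft, and the other 7 genes were added by name. Differences between soft and stiff in the 8 genes are therefore given as descriptions, with no p. Where a call of these genes is reported as kept or lost under another setting, the refits use the same arrays. Such calls describe how the fit behaves and are no evidence beyond the choice of the set.

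The cells were MDA-MB-231, an established human breast cancer line of triple-negative, mesenchymal type. One group was cultured on a soft substrate and the other on a stiff substrate, each for 2 days in the same serum-containing medium, with 4 biological replicates a group lettered A to D and 1 array for each. The labels name no added hormone and no elastic modulus. Both groups came from the 1 line.

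The glucocorticoid receptor, encoded by NR3C1, is a nuclear receptor that is held in the cytoplasm by HSP90 and its co-chaperones until it binds hormone, and then enters the nucleus and binds DNA at glucocorticoid response elements. TSC22D3, also called GILZ, is among its best known induced genes, and its protein restrains NF-kB and AP-1 activity. It is also a target of FOXO factors, which the kinase SGK1 phosphorylates. FKBP5 is induced by the receptor and feeds back on it as an HSP90 co-chaperone that lowers hormone binding. SGK1 and the transcription factor CEBPD are induced as well, both also by stimuli other than glucocorticoids. TSC22D1 was first described as a transcript stimulated by TGF-beta, and TSC22D2 and TSC22D4 proteins bind WNK kinases and the pseudokinase NRBP1 in the response to changes of cell volume.

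Start-site windows were available in RefSeq for 6 of the 8 genes, 22 windows in all, each running from 250 bases before a start site to 50 after it (build GRCh38.p14). They were searched on both strands for the glucocorticoid response element hexamer AGAACA, for the full palindrome, which is that hexamer and its reverse complement at a spacing of 3 bases, and for the FOXO site TGTTTAC. The palindrome contains the hexamer, and the FOXO site shares no bases with it in the windows printed here. The hexamer was in 3 of the 22 windows and in 14.8% of all 35116 windows of the table, the palindrome in 0 of the 22 and in 0.00285% of all windows, and the FOXO site in 2 of the 22 and in 3.42% of all windows. The following windows, 1 each of TSC22D3, TSC22D1, SGK1 and FKBP5, are shown because the levels of these genes carry the results and because each window holds a match, given in capitals. They read 5′ to 3′ on the strand of the gene. The arrays do not tell which start site was used, and a match describes letters and not binding.
TSC22D3, chrX:107717013-107717312, minus strand, FOXO site from base 104: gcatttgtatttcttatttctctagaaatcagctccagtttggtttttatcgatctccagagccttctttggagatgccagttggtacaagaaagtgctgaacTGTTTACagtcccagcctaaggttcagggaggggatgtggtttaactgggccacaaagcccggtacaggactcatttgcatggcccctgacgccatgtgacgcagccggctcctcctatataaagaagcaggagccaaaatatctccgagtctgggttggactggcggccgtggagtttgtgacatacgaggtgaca
TSC22D1, chr13:44474292-44474591, minus strand, hexamer from base 157: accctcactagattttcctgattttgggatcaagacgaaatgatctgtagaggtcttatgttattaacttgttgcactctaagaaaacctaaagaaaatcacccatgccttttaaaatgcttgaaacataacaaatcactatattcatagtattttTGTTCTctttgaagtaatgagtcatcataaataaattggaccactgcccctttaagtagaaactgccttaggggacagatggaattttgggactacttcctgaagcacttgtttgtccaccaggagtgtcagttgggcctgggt
SGK1, chr6:134177812-134178111, minus strand, hexamer from base 256: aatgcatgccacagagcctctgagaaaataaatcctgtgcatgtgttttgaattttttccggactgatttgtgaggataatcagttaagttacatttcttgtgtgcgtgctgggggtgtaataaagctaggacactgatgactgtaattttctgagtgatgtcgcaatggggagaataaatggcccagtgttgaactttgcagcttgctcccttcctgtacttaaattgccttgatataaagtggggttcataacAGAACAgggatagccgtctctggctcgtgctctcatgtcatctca
FKBP5, chr6:35728534-35728833, minus strand, hexamer from base 251: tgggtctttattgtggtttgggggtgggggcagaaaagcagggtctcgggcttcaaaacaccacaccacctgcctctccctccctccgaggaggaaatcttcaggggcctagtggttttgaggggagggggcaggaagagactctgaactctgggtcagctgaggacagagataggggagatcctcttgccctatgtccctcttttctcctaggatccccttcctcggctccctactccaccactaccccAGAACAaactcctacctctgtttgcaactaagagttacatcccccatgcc

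Levels are log2 RMA values of a probe set, so a difference of 1 is a 2-fold change. Levels of different probe sets were set side by side for the background level, for taking the brightest probe set and for list averages. They were not read as relative amounts of RNA. The 8 arrays correlated at 0.993 to 0.998 over all probe sets. The first principal component (40.4% of the variance) separated soft from stiff arrays and the second (16.4%) set stiff A and B apart from stiff C and D, for which the labels give no reason. Differences of the brightest probe sets of TSC22D1, TSC22D2, TSC22D3, FKBP5 and SGK1 are therefore given against either stiff pair as well. All 8 genes listed as high in MDA-MB-231, vimentin and EGFR among them, lay above the background level, and 0 of 6 genes listed as low in the line did, among them the estrogen receptor gene ESR1 and the E-cadherin gene CDH1. No member of the lists of 6 fibroblast, 5 endothelial, 5 leukocyte and 5 adipocyte markers reached that level in either group mean. The endothelial list averaged 5.50 to 5.59 on soft arrays and 5.39 to 5.59 on stiff arrays, and its PECAM1 passed the test as higher on soft (means 8.01 on soft and 7.52 on stiff). The part of other cells in the results was not tested. The background level was 8.05, set by a fixed list of silent genes. With the silent-list gene MBP, itself read at 11.4, left out, it was 6.39. Above that lower level lay 2 of the 6 low genes, ESR1 (means 6.43 on soft and 6.38 on stiff) and ERBB3 (7.18 on soft and 6.86 on stiff, limma adjusted p = 0.00994), and 3 of the 21 markers of other cell types. These 3 were PECAM1, COL1A1 (7.64 on both) and LYZ (6.99 on soft and 6.49 on stiff, adjusted p = 0.0793). Of the 26 probe sets, 13 lay above 8.05 and 15 above 6.39 in at least 1 group. In bulk RNA, fewer cells expressing a gene and less RNA per cell cannot be told apart, and the number of arrays limits the precision.

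TSC22D3 was higher on soft than on stiff, TSC22D2 and FKBP5 were lower, TSC22D1 was higher against only part of the stiff arrays, and NR3C1, CEBPD and TSC22D4 differed little. Taking as called an adjusted p under 0.05 in the limma fit over all 54613 probe sets, 5 of the 26 probe sets were called, 2 of TSC22D3 as higher and 3, of TSC22D2 and FKBP5, as lower. Over all probe sets 9.27% were called, 4.64% as higher on soft and 4.63% as lower. Soft and stiff arrays did not overlap at 6 of the 26 probe sets, 3 higher and 3 lower on soft, against 16.6% of all probe sets. Since the contrast chose the set, nothing is read from these counts.

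**Figure D1:**
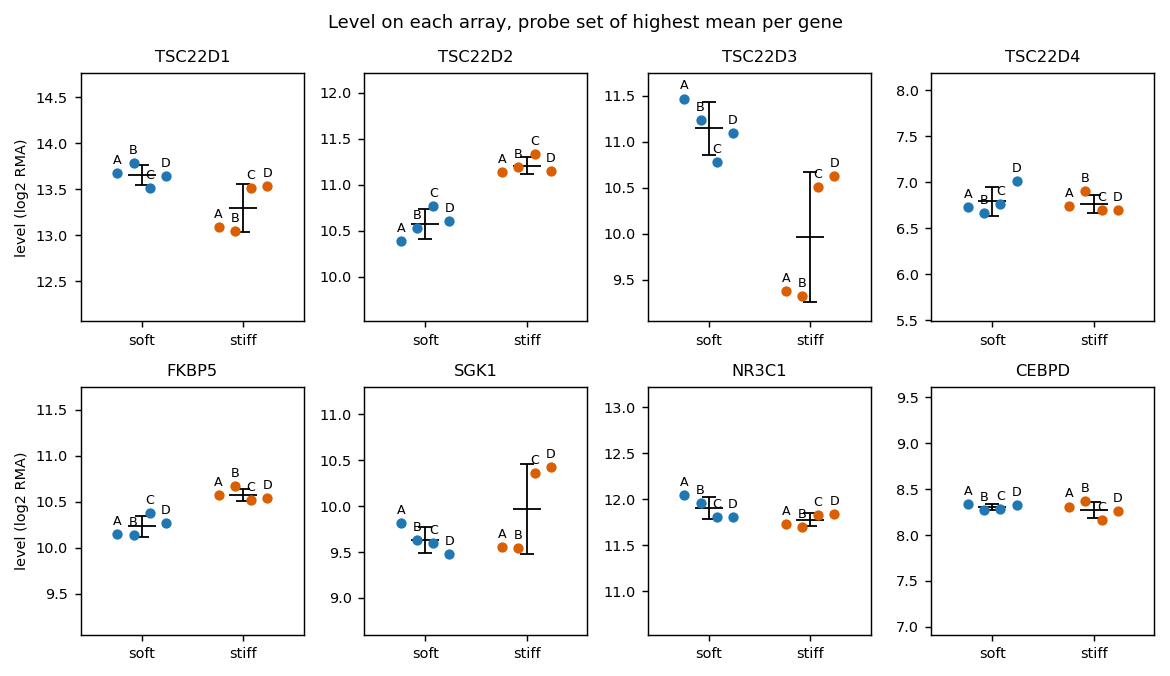
Level (log2 RMA) on each of the 4 soft and 4 stiff arrays, lettered A to D, for the probe set of highest mean of each gene, with the mean and SD of each group in black; every panel spans the same number of log2 units. TSC22D3 on stiff arrays splits into A and B near 9.35 and C and D near 10.57, and SGK1 into A and B near 9.55 and C and D near 10.39.

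TSC22D3 had 3 probe sets. Its probe set of highest mean, 208763_s_at, read 11.47, 11.24, 10.78 and 11.09 on soft A to D, against 9.38, 9.32, 10.51 and 10.63 on stiff A to D. The groups did not overlap, but the lowest soft array (C) lay only 0.15 above the highest stiff array (D). Stiff arrays varied more, with 11.14 ± 0.29 on soft and 9.96 ± 0.71 on stiff (SD, n = 4 each). The difference was 1.19 (SE 0.285), or 2.27-fold. Against stiff A and B alone it was 1.79, and against stiff C and D alone 0.57. The size of the increase thus depended on which stiff arrays stood for stiff. The call was lost in 7 of 19 alternatives, namely without soft A (difference 1.08), soft B (1.15) or soft D (1.20), without stiff A (0.99) or stiff B (0.97), without both stiff A and B, and under a trended, robust variance model. It was not lost without stiff C (1.37), stiff D (1.41) or soft C (1.31).

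A dimmer TSC22D3 probe set, 207001_x_at, whose suffix marks probes that may match other sequences, also had its low soft array at C and its low stiff arrays at A and B. It read 7.95, 7.98, 7.61 and 7.65 on soft, against 7.03, 7.21, 7.44 and 7.51 on stiff A to D. The groups did not overlap and were 0.10 apart. The difference was 0.50 (SE 0.12), with 0.68 against stiff A and B and 0.32 against stiff C and D. This call was lost in 6 of 18 alternatives, among them those without soft A (0.45), soft B (0.44), stiff A (0.41), stiff B (0.47) or both stiff A and B. The remaining probe set, 235364_at, lay below background at 3.93 to 4.45 on soft and 3.94 to 4.41 on stiff.

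TSC22D1 was the family member whose arrays followed TSC22D3 most closely, with a Pearson correlation of 0.977 over the 8 arrays. Its probe set of highest mean, 215111_s_at, read 13.67, 13.78, 13.51 and 13.64 on soft, against 13.09, 13.04, 13.51 and 13.53 on stiff A to D. Stiff C and D lay within the soft range while stiff A and B lay below it, so the groups overlapped. With all arrays 215111_s_at was not called, and it was called higher in 4 of 19 alternatives. Its difference of 0.36 (SE 0.118) was made up of 0.58 against stiff A and B and 0.13 against stiff C and D. The second TSC22D1 probe set above background, 235315_at, did not share this split: it read 10.02 to 10.14 on soft, against 10.02, 10.07, 9.83 and 9.74 on stiff A to D. There stiff C and D were the low arrays, and the difference was 0.04 against stiff A and B and 0.30 against stiff C and D. Probe sets of 1 gene can read different transcripts, which these values cannot assign. The other 2 probe sets of TSC22D1 lay below background, with differences of 0.06 and 0.35.

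TSC22D2 went the other way in every array. Its probe set 204094_s_at read 10.39, 10.53, 10.77 and 10.61 on soft, against 11.14, 11.20, 11.34 and 11.15 on stiff A to D. The highest soft array lay 0.37 below the lowest stiff array, the widest gap among the 26 probe sets. The difference was -0.63 (SE 0.0858), making stiff 1.55-fold higher, and it was nearly as large against either stiff pair, at -0.59 against A and B and -0.67 against C and D. This call was kept in all 19 alternative fits that tested the probe set. These fits reuse the same arrays, so the kept call is a description and no added support. The other 5 TSC22D2 probe sets lay below background at 5.80 or less in group mean and differed by -0.05 to -0.34, 1 of them (215547_at, -0.27) called and called again in 5 of 16 alternatives. Another, 210954_s_at, was not called with all arrays but was called lower in 2 of 16 alternatives.

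TSC22D4, at 6.66 to 7.01 on soft and 6.70 to 6.90 on stiff in its brighter probe set, differed by 0.03 (SE 0.0847), and its other probe set by -0.08 (SE 0.0912). Soft and stiff arrays overlapped in both. In the probe sets of highest mean TSC22D3 thus differed by 1.19, TSC22D1 by 0.36, TSC22D4 by 0.03 and TSC22D2 by -0.63. The 4 TSC22D genes did not share a direction.

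**Figure D2:**
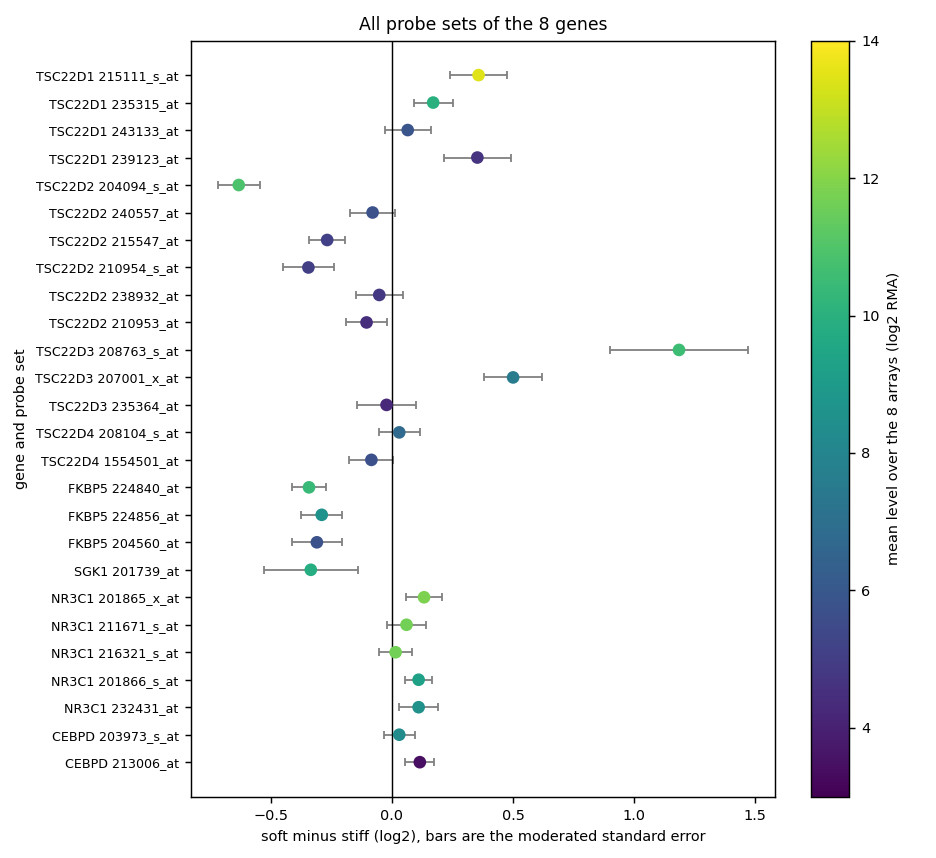
Soft minus stiff (log2) for all 26 probe sets, ordered by gene and then by level, with the moderated standard error as bars and the mean level over the 8 arrays as colour. The largest difference is that of TSC22D3 208763_s_at (1.19) and the lowest that of TSC22D2 204094_s_at (-0.63), and all 3 FKBP5 probe sets lie between -0.29 and -0.34.

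FKBP5, the feedback co-chaperone of the receptor, was lower on soft at all 3 of its probe sets. The brightest, 224840_at, read 10.15, 10.14, 10.38 and 10.27 on soft, against 10.58, 10.67, 10.52 and 10.54 on stiff A to D. The groups were 0.14 apart, and stiff A and B stood slightly above stiff C and D, the reverse of TSC22D3. The difference was -0.34 (SE 0.0717), with -0.39 against stiff A and B and -0.29 against stiff C and D; the call was lost in 1 of 19 alternatives, that without stiff A and B. Probe set 224856_at read 8.30 to 8.65 on soft and 8.61 to 8.81 on stiff, a difference of -0.29 (SE 0.0843), and 204560_at, below background, differed by -0.31 (SE 0.103). Arrays of the groups overlapped in these last 2. Neither was called with all arrays, though 224856_at was called lower in 6 of 19 alternatives. The pair of genes named together as receptor targets thus stood in opposite order on these substrates. Over the 8 arrays FKBP5 correlated with TSC22D3 at -0.893, and at -0.694 with the mean of each group taken off. The first value in part restates the contrast of soft and stiff that chose TSC22D3.

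SGK1, a kinase that acts on ion channels and on FOXO factors, had 1 probe set, 201739_at. It read 9.82, 9.63, 9.60 and 9.48 on soft, against 9.55, 9.54, 10.36 and 10.42 on stiff A to D. Stiff A and B lay within the soft range and stiff C and D above every soft array. The difference was -0.34 (SE 0.194) over all arrays, 0.09 against stiff A and B and -0.76 against stiff C and D. With all arrays it was not called, and of 19 alternatives only the fit without stiff A and B called it lower.

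NR3C1, the receptor itself, had 5 probe sets, all above background, and all differed by 0.01 to 0.13. The brightest, 201865_x_at, read 12.05, 11.96, 11.81 and 11.81 on soft, against 11.73, 11.70, 11.83 and 11.84 on stiff, a difference of 0.13 (SE 0.0734). Only 201866_s_at did not overlap, at 9.28 to 9.34 on soft and 9.16 to 9.23 on stiff, 0.05 apart, with a difference of 0.11 (SE 0.0555). CEBPD read 8.34, 8.27, 8.28 and 8.33 on soft, against 8.31, 8.37, 8.16 and 8.26 on stiff, a difference of 0.03 (SE 0.0637), and its other probe set lay far below background. None of the probe sets of NR3C1 and CEBPD was called with all arrays, which does not show that they are equal. In 1 of 19 alternatives 201866_s_at was called higher.

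**Figure D3:**
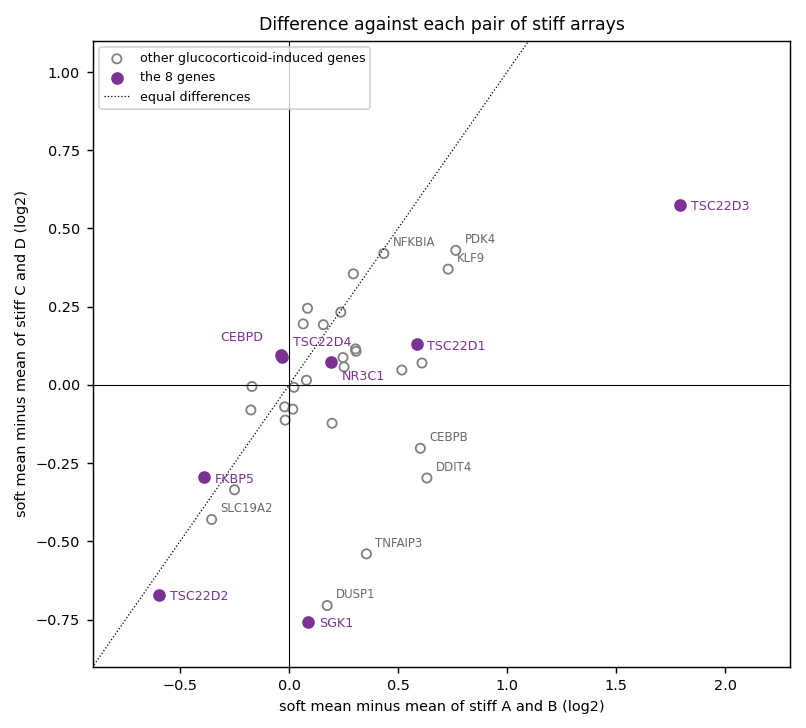
Soft mean minus the mean of stiff A and B (horizontal, log2) against soft mean minus the mean of stiff C and D (vertical, log2), at the probe set of highest mean, for the 8 genes (filled) and 28 other glucocorticoid-induced genes (open); the dotted line marks equal differences. The axes share the 4 soft arrays, so points near the line differ equally from both stiff pairs, as TSC22D2 (-0.59 and -0.67) does, while TSC22D3 (1.79 and 0.57) and SGK1 (0.09 and -0.76) lie far below it.

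Stiff A and B both lay below stiff C and D in 4 of the 8 genes, TSC22D1, TSC22D3, SGK1 and NR3C1, and in 22.1% of all 19775 genes (4364). Both lay above stiff C and D in 3 of the 8, TSC22D4, FKBP5 and CEBPD, and in 5505 of all genes. The mean of stiff A and B minus that of stiff C and D was -1.22 for TSC22D3, -0.84 for SGK1, -0.45 for TSC22D1 and -0.12 for NR3C1. With the group means taken off, TSC22D1 correlated with TSC22D3 at 0.959 over the 8 arrays, SGK1 at 0.958 and NR3C1 at 0.761. FKBP5 stood at -0.694 by this measure, CEBPD at -0.633, TSC22D4 at -0.447 and TSC22D2 at -0.141. These correlations rest on 8 arrays whose stiff members form 2 pairs, and no p is given.

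Of 7812 other genes above the background level, the 5 most like TSC22D3 by Pearson correlation over the 8 arrays were CAMK1D (0.993), PAN2 (0.993), OTUD1 (0.991), COMMD3 (0.991) and HERPUD1 (0.990). CAMK1D, a calmodulin-dependent kinase, read 8.22 to 8.43 on soft, against 7.64, 7.60, 8.06 and 8.09 on stiff A to D. The deubiquitinase OTUD1 read 10.95 to 11.18 on soft, against 10.54, 10.56, 10.81 and 10.94. In each of these 5, as in TSC22D3, stiff A and B were lowest and the soft arrays highest, over a smaller range. The 5 were picked for their likeness to TSC22D3 over these same arrays, so the shared order follows from the choice and is no separate result. With group means taken off the 5 most like it were TRIB3 (0.997), MCL1 (0.996), ACOT9 (0.990), CAMK1D (0.985) and PAN2 (0.983). TRIB3, a pseudokinase of the stress response, read 9.41 to 9.85 on soft, against 9.04, 8.93, 9.78 and 9.89 on stiff A to D. The apoptosis inhibitor MCL1 read 12.43 to 12.61 on soft, against 12.52, 12.46, 12.81 and 12.85.

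Other genes known to be induced by glucocorticoids were examined to place the 8 genes, each at its probe set of highest mean. Of 31 on a fixed list 28 were measured; 4 rose, 1 fell and 23 did not pass the test, where 10.3% of all genes were called, 4.39% as higher and 5.93% as lower. Their median difference was 0.16, against 0.0075 over all genes. Set against stiff A and B, the median was 0.22 (all genes -0.0025), and set against stiff C and D, 0.03 (all genes 0.015). Of the 31 dimmer probe sets of these genes 3 rose, 1 of KLF9 and 2 of CDKN1C, and 2 fell, both of MAOA. Over all probe sets 9.27% were called, a smaller share, and the reason was not tested. PDK4, which restrains pyruvate oxidation, rose most, at 8.11, 8.28, 8.10 and 8.17 on soft, against 7.40, 7.40, 7.69 and 7.78 on stiff A to D (difference 0.60, SE 0.0947, limma adjusted p = 0.00379). Soft exceeded stiff A and B by 0.77 and stiff C and D by 0.43. The Krüppel-like factor KLF9, a direct receptor target, read 8.48, 8.96, 8.73 and 8.69 on soft, against 7.95, 8.02, 8.31 and 8.38 on stiff (0.55, SE 0.119, adjusted p = 0.0159), with 0.73 against stiff A and B; in another probe set of KLF9 it rose by 1.01 (adjusted p = 0.000617), while its 3 dimmest did not pass the test. NFKBIA, the NF-kB inhibitor, rose by 0.43 (SE 0.0645, adjusted p = 0.00294) and, unlike TSC22D3, by nearly the same against stiff A and B (0.43) and stiff C and D (0.42). The dim probe set of NFKBIA differed by 0.13 (adjusted p = 0.348). CRISPLD2, a secreted protein, rose by 0.33 (SE 0.0643, adjusted p = 0.0109), though its dim probe set differed by 0.02. The thiamine transporter SLC19A2 fell, at 9.13, 9.49, 9.42 and 9.22 on soft, against 9.64, 9.70, 9.78 and 9.71 on stiff (-0.39, SE 0.0841, adjusted p = 0.0155).

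In part of the list the stiff pairs stood apart. Stiff A and B both lay below stiff C and D in 18 of its 28 genes (64.3%, against 22.1% of all genes) and both above in 3. DUSP1, a phosphatase that switches off MAP kinases, read 9.95 to 10.19 on soft, against 9.93, 9.89, 10.87 and 10.71 on stiff A to D. Stiff C and D lay above every soft array, as for SGK1, but stiff A and B lay just below every soft array, unlike in SGK1. DDIT4, an inhibitor of mTORC1, read 11.81 to 11.96 on soft, against 11.36, 11.17, 12.16 and 12.23, so that soft lay between the stiff pairs, as it did for CEBPB at 11.36 to 11.61 on soft, against 10.88, 10.85, 11.69 and 11.65. None of these 3 passed the test over all arrays; they were singled out after their values were seen. Without stiff C and D 7 genes rose and 0 fell (5.58% of all genes called), and without stiff A and B 2 rose and 2 fell (4.22% called). KLF9 lost its call without stiff B (0.50, adjusted p = 0.0524) and without stiff A and B (0.37, adjusted p = 0.134, the highest of its 20 alternatives). SLC19A2 and CRISPLD2 lost theirs without either stiff pair, and CRISPLD2 also with the mean of its probe sets (highest adjusted p 0.115 for SLC19A2 and 0.0850 for CRISPLD2). Their differences against stiff A and B and against stiff C and D stayed close to those over all arrays, at -0.35 and -0.43 for SLC19A2 and 0.29 and 0.35 for CRISPLD2, while PDK4 and NFKBIA kept theirs in all 20 alternatives (highest adjusted p 0.0276 for PDK4 and 0.0322 for NFKBIA).

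**Figure D4:**
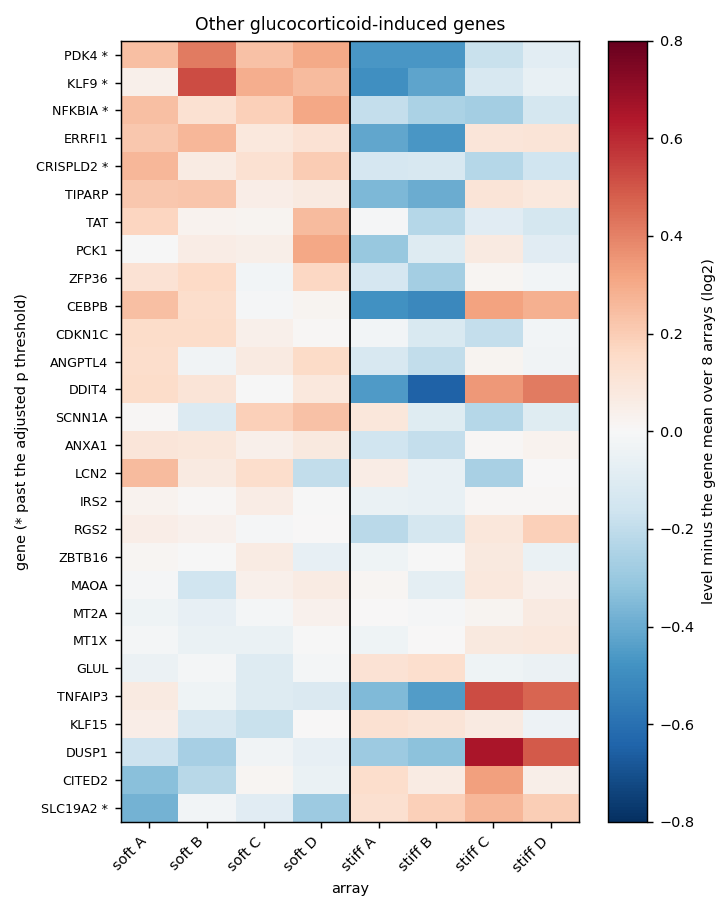
Level of 28 other glucocorticoid-induced genes on each array minus the mean of the gene over the 8 arrays (log2, colour), ordered by soft minus stiff, with soft arrays left of the line and genes past the adjusted p threshold starred. The rows of CEBPB, DDIT4, TNFAIP3 and DUSP1 change sign between stiff A and B and stiff C and D. So do others that lie nearer their mean on stiff C and D, ERRFI1, TIPARP and RGS2 among them, while no starred gene does.

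Of 19 genes of the receptor's own machinery 15 were measured, 0 rose, 1 fell and 14 did not pass the test (median difference -0.07), near the 10.3% called over all genes. The 1 was FKBP4, the co-chaperone that competes with FKBP5 for HSP90 and helps carry the receptor to the nucleus. It read 8.69, 8.54, 8.63 and 8.59 on soft, against 8.98, 8.89, 8.92 and 8.88 on stiff (-0.31, SE 0.0603, adjusted p = 0.0108), and its next brightest probe set fell by 0.35 (adjusted p = 0.0132). Both FKBP4 and FKBP5 were thus lower on soft. The co-chaperone STIP1, which links HSP70 and HSP90, differed by -0.22 (adjusted p = 0.0763), and its dimmer probe set fell by 0.30 (adjusted p = 0.0413). HSP90AB1, a gene of HSP90 itself, differed by -0.16 (adjusted p = 0.141) and its co-chaperone PTGES3 by -0.12 (adjusted p = 0.231). The coactivator EP300 differed the other way, by 0.21 (adjusted p = 0.0623). Of the 32 dimmer probe sets of the list 2 fell, those of FKBP4 and STIP1, and 4 rose. This was a larger share than the 9.27% called over all probe sets, and the reason was not tested. Those that rose were 1 each of the coactivator genes MED1 (0.51, adjusted p = 0.0039) and NCOA1 (0.36, adjusted p = 0.0136). The others were 1 each of NCOA2 (0.42, adjusted p = 0.00604) and CREBBP (0.21, adjusted p = 0.0476), also coactivator genes. All of these probe sets but that of MED1 lay below background. None of these genes passed the test at its brightest probe set. The differences there were -0.06 for MED1, 0.0975 for NCOA1, -0.015 for NCOA2 and -0.085 for CREBBP. The mineralocorticoid receptor gene NR3C2, which binds the same hormones, differed by -0.20 (adjusted p = 0.264), and the hormone-converting enzymes HSD11B1 and HSD11B2 lay below background.

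Among protein partners of the TSC22D family and of SGK1, 17 of 19 were measured, 1 rose, 1 fell and 15 did not pass the test (median 0.03), close to the 10.3% called over all genes. NDRG1, a phosphorylation target of SGK1, read 11.02, 11.01, 10.68 and 10.92 on soft, against 10.15, 9.93, 10.19 and 10.21 on stiff (0.79, SE 0.0919, adjusted p = 0.00078). NEDD4L, a ubiquitin ligase that SGK1 phosphorylates, read 10.52, 10.52, 10.71 and 10.52 on soft, against 10.95, 11.02, 11.33 and 11.21 on stiff (-0.56, SE 0.0901, adjusted p = 0.00403), and 2 more of its probe sets fell by 0.41 and 0.49, while the 3 dimmest did not pass the test. Both were called in all 20 alternatives. The kinases WNK1, OXSR1 and STK39, which act with TSC22D2 and TSC22D4 proteins, differed by 0.04, 0.14 and -0.18 and did not pass the test, though a dimmer WNK1 probe set rose by 0.52 (adjusted p = 0.00254). Of the 37 dimmer probe sets of the list 4 rose, of WNK1, JUN (0.60), FOXO3 (0.40) and RICTOR (0.25). Another 5 fell, 2 of NEDD4L, 2 of MAPKAP1 (-0.34 and -0.31) and 1 of WNK3 (-0.27). The share of these dimmer probe sets called was thus above the 9.27% over all probe sets, for a reason not tested. FOS, a subunit of AP-1, which TSC22D3 protein binds, lay below the 8.05 level but above 6.39. It read 7.65 to 7.79 on soft, against 6.77, 6.77, 8.04 and 8.13 on stiff A to D, with soft between the stiff pairs, and was singled out after its values were seen.

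Of 22 relatives of SGK1, CEBPD and FKBP5, 21 were measured, 1 rose, 1 fell and 19 did not pass the test (median 0.06), again close to the 10.3% over all genes. Of their 23 dimmer probe sets 1 rose, of FKBP15, and 1 fell, of FKBP4, close to the 9.27% called over all probe sets. The 1 that fell was again FKBP4. FKBP9, an immunophilin of the endoplasmic reticulum, read 9.86, 9.77, 9.71 and 9.78 on soft, against 9.51, 9.42, 9.37 and 9.42 on stiff (0.35, SE 0.0616, adjusted p = 0.00631), opposite to FKBP5, though its call was lost without stiff C and D (difference 0.31, adjusted p = 0.0581, the highest of its 20 alternatives). FKBP4 lost its call without either stiff pair (adjusted p = 0.0779 at most), at differences of -0.32 against stiff A and B and -0.29 against stiff C and D.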

How the data were processed

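Gene expression was measured on Affymetrix arrays in 8 samples, 4 soft and 4 stiff. The authors deposited 1 log2 value for each probe set and array, made with RMA per the submitters' processing notes. Scale and rounding (2 decimals) were inferred from the numbers. RMA equalises arrays and compresses differences of dim probe sets. No source used here gives its software.

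The deposited table held 54675 probe sets, of which 62 controls were left out. Symbols came from the platform annotation (41091 probe sets with 1 symbol, 1801 with several, 11721 with none), updated through RefSeq. For lists, a gene took its probe set of highest mean. Soft and stiff were compared with limma 3.58.1 in R 4.3.3 (lmFit and eBayes, no trend, no filter), with two-sided p-values adjusted by Benjamini-Hochberg over 54613 probe sets at 0.05. Differences subtract the stiff mean from the soft mean (log2), with moderated standard errors (SE). Replicates are called biological, with no word on separate cultures; p-values therefore measure only spread between these samples, which may be technical. Replicate letters were not used to pair arrays. The procedure was tested on simulated data.

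The members and lists were chosen with earlier results of these data known. Named were the 8 genes, list genes past the threshold (up to 3 per direction; all for the glucocorticoid-induced list) and the 5 genes most like TSC22D3 by each of 2 measures; other list genes are named for their role or, where stated, for their values. The background level was the 95th percentile over 16 measured silent genes, each at its mean. Alternatives were a replicate block, 3 scalings, 2 filters, another variance model, array weights, arrays left out singly and in the stiff pairs, and averaging the probe sets of each gene. The filter without MBP was added after seeing the data.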

Additional observations from a re-analysis of the deposited data

Results flagged for a closer look

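In groups of 4 arrays, a highest or lowest array far from the others was looked for at the 26 probe sets of the 8 genes and at 9 list genes past the threshold, 70 groups in all; about 1 in 20 groups would be marked by chance, and 2 were. The TSC22D2 probe set 210954_s_at, below background, read 5.13 on soft C against 4.78 on the next soft array and 4.72 on the lowest. NEDD4L read 10.71 on soft C and 10.52 on each of the other 3 soft arrays.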

How the results depend on the processing

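No direction of a called value reversed. The 5 called probe sets of the 8 genes lost 25 of 91 recomputed calls, 11 of them of the dim TSC22D2 215547_at, and the 9 called list genes lost 10 of 180. Differences of the 8 genes moved by more than the replicate SD in 8 values, all without a stiff pair. The count of called probe sets of the 8 genes, 5 with all arrays, became 2 to 6 with 1 array left out and 2 without stiff A and B. Those 2 were TSC22D2 204094_s_at, the only 1 of the 5 still called there, and SGK1 201739_at, not called with all arrays. The 5061 called probe sets of the table became 2851 to 5080 with 1 array left out, 2188 without stiff A and B and 2659 without stiff C and D. With the replicate letters as a replicate block, 5 probe sets of the 8 genes and 3937 of the table were called, TSC22D3 207001_x_at no longer among them. Deviations of same-lettered arrays correlated at 0.122, -0.118, 0.052 and -0.045 for A to D. These values show no sign of pairing by letter but cannot exclude it, since the stiff deviations also hold the split of A and B from C and D. Of the receptor machinery (1 called), 2 genes were called after quantile normalization or cyclic loess, 5 above background, 4 above the level without MBP, 3 above the median level, 5 under trended, robust variances and 3 when probe sets were averaged. Limma called 0 without stiff A and B and 0 without stiff C and D, where 2 and 4 had an unadjusted p under 0.05. Of the partners (2 called), 4 were called above background and 4 with the mean of all probe sets; of the relatives (2 called), 4 above background and 1 without stiff A and B. The filters adjust over fewer probe sets, and otherwise the cause was not tested. Calls over the table rose as well, from 5061 probe sets to 5158 after quantile normalization, 5105 after cyclic loess and 5238 above background. They were 6868 above the level without MBP, 6700 above the median level and 6747 under trended, robust variances. The shares of all genes called in these settings are not given here, so the list counts cannot be judged against them. The mean of all probe sets gives genes, not probe sets, and so no count for the 26. With it TSC22D1 (0.24), TSC22D2 (-0.25), TSC22D3 (0.55) and FKBP5 (-0.31) were called.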
